A study of Drosophila melanogaster with 2 samples.

Results

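Intergenic peaks away from promoters are the peaks called for the Rotund-eGFP fusion that lie between genes and outside the immediate vicinity of any annotated transcript start. They were taken from the peak set called over both replicates, as the peaks on the 6 chromosome arms whose summit, the highest point of the peak, fell in no annotated gene body and more than 500 bp from every transcript start. Of the 3774 peaks on the arms, 572 met this rule, which is 15.2% (95% Wilson interval 14.0 to 16.3). Introns held 1616 summits, promoters, meaning summits within 500 bp of a start, held 1453, and exons held 133. After overlapping members were joined, the 572 peaks formed 556 separate regions.

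The data are chromatin immunoprecipitation with sequencing (ChIP-seq) from whole Drosophila melanogaster pupae of the rn-GFP strain, which express a fusion of Rotund (rn) with eGFP, precipitated through the GFP tag after sonication. The tag is given after the description, which names an anti-GFP antibody, while the antibody label reads rn. There were 2 biological replicates of a single group, with pupal stage and sex not stated. The strain is labelled as an insertion targeting rn, with no statement of whether the native gene or an added copy carries the tag. The files hold peak lists without reads, so depth is unknown, control libraries were not analysed here, no conditions could be compared, and binding cannot be assigned to a tissue.

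Rotund is a C2H2 zinc finger transcription factor known from the patterning of the distal leg, antenna and wing, where it acts within a network that includes the bab genes and other limb selectors. In flies, much of the control of developmental genes runs through enhancers, short stretches that bind several transcription factors and act on promoters at a distance. Enhancers lie in introns and between genes, and a bound stretch need not act on the nearest gene.

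The bases of 7 intergenic peaks are printed here because the results below turn on them: 4 of the 10 strongest, the strongest in each of a pair of long intervals with many peaks, and the peak beside rn itself. They are the plus strand of the RefSeq sequence of genome Release 6 (dm6), 5′ to 3′, and the capitals mark the 51 bp centred on the summit. Each is named by the protein-coding genes nearest to it on the left and on the right.
Between COX7AL2 and CG31668 (2L:2202284-2202525): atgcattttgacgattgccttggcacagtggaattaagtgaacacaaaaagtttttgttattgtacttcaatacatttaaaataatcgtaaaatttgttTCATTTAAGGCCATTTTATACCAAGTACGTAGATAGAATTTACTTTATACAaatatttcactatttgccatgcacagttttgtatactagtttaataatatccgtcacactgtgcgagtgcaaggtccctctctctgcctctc
Between CG43245 and CG12523 (3L:10776465-10776667): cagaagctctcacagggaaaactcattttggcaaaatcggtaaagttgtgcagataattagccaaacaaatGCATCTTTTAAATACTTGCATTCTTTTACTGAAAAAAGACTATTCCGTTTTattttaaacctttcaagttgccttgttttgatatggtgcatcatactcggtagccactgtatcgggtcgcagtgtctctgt
Between mtSSB and tara (3R:16222397-16222582): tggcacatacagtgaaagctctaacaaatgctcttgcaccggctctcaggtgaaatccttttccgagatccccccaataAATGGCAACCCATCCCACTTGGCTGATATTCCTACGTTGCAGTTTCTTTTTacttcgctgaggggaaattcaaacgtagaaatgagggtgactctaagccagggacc
Between CG45105 and Fbxl7 (3R:15919506-15919670): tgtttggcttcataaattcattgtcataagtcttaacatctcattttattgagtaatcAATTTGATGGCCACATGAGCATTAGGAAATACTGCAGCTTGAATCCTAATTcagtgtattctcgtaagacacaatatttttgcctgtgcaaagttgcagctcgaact
Between NijA and CG43245 (3L:10739677-10739972): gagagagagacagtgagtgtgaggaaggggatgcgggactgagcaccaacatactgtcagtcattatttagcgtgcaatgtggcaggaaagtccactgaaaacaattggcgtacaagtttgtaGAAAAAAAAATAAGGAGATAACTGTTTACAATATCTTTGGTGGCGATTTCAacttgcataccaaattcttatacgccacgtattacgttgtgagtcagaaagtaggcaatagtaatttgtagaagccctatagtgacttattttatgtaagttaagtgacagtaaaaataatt
Between Qsox2 and Eip93F (3R:21941384-21941679): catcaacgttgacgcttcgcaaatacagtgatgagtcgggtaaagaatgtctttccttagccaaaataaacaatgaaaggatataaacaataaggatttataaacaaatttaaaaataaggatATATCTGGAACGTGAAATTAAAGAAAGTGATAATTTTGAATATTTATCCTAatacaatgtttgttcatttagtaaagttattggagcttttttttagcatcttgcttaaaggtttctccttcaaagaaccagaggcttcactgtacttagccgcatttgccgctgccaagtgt
Between rn and CG10029 (3R:7310669-7310964): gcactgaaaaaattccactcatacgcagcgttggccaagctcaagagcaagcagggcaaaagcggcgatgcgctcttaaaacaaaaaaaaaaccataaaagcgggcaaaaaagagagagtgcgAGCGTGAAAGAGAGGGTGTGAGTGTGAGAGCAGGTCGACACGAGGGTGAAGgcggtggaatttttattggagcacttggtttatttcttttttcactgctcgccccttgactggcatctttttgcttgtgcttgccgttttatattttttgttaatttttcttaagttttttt

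In the first of these, beside the cytochrome c oxidase subunit gene COX7AL2, G and C made up 27.5% of the capitals and 34.6% of the other bases. The share was 27.5% against 40.8% in the peak between CG43245 and CG12523. It was 29.4% against 39.6% between NijA and CG43245, and 23.5% against 34.7% upstream of Eip93F. The peak between mtSSB and tara differed less, with 43.1% against 48.9%. The order was the other way in the peak between CG45105 and Fbxl7, with 37.3% against 34.2%, and in the one beside rn, with 56.9% against 40.4%. The centre of the peak beside rn holds GA-rich repeats. Against flanks 500 bp away, the mtSSB and tara peak was the richer in G and C at its centre, with 43.1% against 25.7%, as was the one beside rn, with 56.9% against 37.1%, and the other 5 were the poorer.

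The 10 strongest intergenic peaks lay at genes of varied function, and both replicates called all 10. The signal is the authors' peak height and is not scaled between lists, so values are compared only within a list. The strongest had a signal of 697, rank 12 of the whole set, and signals of 343 and 349 in the ranked lists of replicates 1 and 2. It lay at 2R:13035228-13035439, 27420 bp from the Polycomb-group-related gene Su(z)2 and 9364 bp from CG13323. Next came the peak beside COX7AL2 with 542 (269 and 268).

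The third strongest, at 2R:22678227-22678573 between RYBP, which encodes a Polycomb-associated protein, and the F-box gene Ppa, had a signal of 541, with 358 in replicate 1 and 183 in replicate 2. The peak between CG43245 and CG12523 had 435 (230 and 212). The one between mtSSB, for a mitochondrial DNA-binding protein, and tara, for a transcriptional regulator, had 376 (202 and 188). It lay 894 bp from the start of lncRNA:CR45643. The signal between CG45105 and the F-box gene Fbxl7 was 291 (141 and 154).

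The remaining 4 of the 10 had signals of 272 to 289. On X, the peak at X:10265820-10265985 between CG12643 and the mannosidase gene alpha-Man-Ia had 289 (144 and 152). The peak at 2L:715484-715663 lay 591 bp upstream of ds, which encodes the cadherin Dachsous, with Hsp60B on its other side, and had 285 (139 and 145). The peak at 2L:4030561-4030716 lay 752 bp upstream of ed, which encodes the adhesion molecule Echinoid, with CG43774 on its left, and had 284 (142 and 141). Its summit fell in an annotated transposon. The last, at 3L:762452-762590 between hng3 and CG13898, had 272 (129 and 145).

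Intergenic peaks reached lower signals than promoter peaks in every list. Their median signal was 74.3 (quartiles 58.0 and 106, range 2.30 to 697), against 78.8 in introns (quartiles 60.0 and 114) and 85.0 at promoters (quartiles 62.6 and 142). In replicate 1's own thresholded set the medians were 54.4 for 328 intergenic peaks, 54.3 for introns and 60.8 for promoters. In that of replicate 2 they were 50.9 for 289 intergenic peaks, 52.1 and 59.0. The interquartile ranges of the 3 classes overlapped widely in each list. The strong end differed more: 5 of the 572 stood among the 100 strongest peaks of the set and 54 among the 500 strongest, or 9.44% (7.31 to 12.1), while 17.8% (15.9 to 19.9) of promoter peaks did.

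Among the 572, 520 were exactly 296 bp wide, and these had a median signal of 70.3. The other 52, from 74 to 347 bp wide, had a median of 203. A signal under 20 was found in 16 members, 15 of which overlapped another peak of the set, so these need not be separate sites. Just inside the distance limit of the rule, 26 peaks lay over 500 and up to 600 bp from a start, with signals from 49.5 to 285 and a median of 90.6. Just outside it, 24 peaks between genes lay over 400 and up to 500 bp from a start, with 53.6 to 276 and a median of 84.9.

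Recurrence between the replicates followed signal. The replicates' own thresholded sets held a peak overlapping 315 (55.1%) and 277 (48.4%) of the intergenic peaks, and 203 (35.5%, 31.7 to 39.5) were in both. For introns that share was 39.9% (37.6 to 42.3), and for promoters 46.5% (44.0 to 49.1). Neither set held 183 (32.0%), so nearly 1 in 3 entered only through the call over both replicates. The conservative set held 468 (81.8%).

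When all peaks of the set were divided into 4 equal parts by signal, with limits at 60.1, 79.7 and 119, intergenic peaks recurred at 1.19%, 6.67%, 58.2% and 98.1% from the lowest part to the highest. Intron peaks recurred at 1.95%, 6.78%, 59.7% and 97.0%, and promoter peaks at 2.27%, 6.44%, 59.2% and 99.1%. The intervals of the 3 classes overlapped in every part. Intergenic peaks were fewer in the highest part, with 108 members, than in the lowest, with 168. The signal limits come from the call over both replicates, which shares reads with each replicate's own call.

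**Figure D1:**
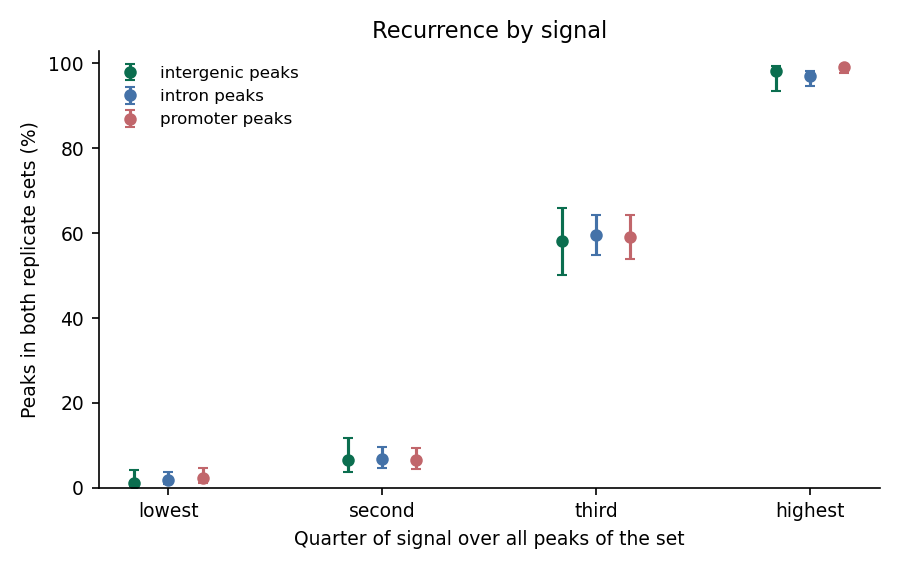
Share of intergenic, intron and promoter peaks found in both replicates' own sets (vertical axis, %), by part of the signal over all peaks of the set (horizontal axis). Points are shares and bars are 95% Wilson intervals, and at each level of signal the 3 classes lie close together, rising from 1.19% to 98.1% for intergenic peaks.

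Over the 564 members found in both ranked lists, signals in the replicates had a Pearson correlation of 0.831 and a Spearman correlation of 0.577, as a description over peaks of the same 2 libraries. The same values were 0.875 and 0.642 over 1590 intron peaks and 0.942 and 0.723 over 1417 promoter peaks. In each replicate 22 members shared a ranked peak value with another member on the same arm, as overlapping peaks do.

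**Figure D2:**
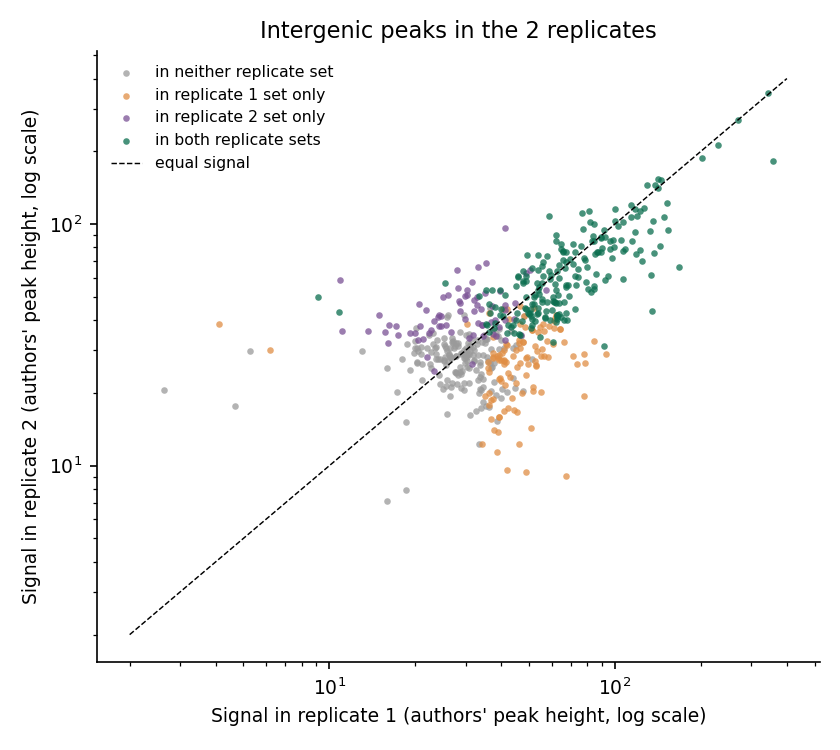
Signal of each of 564 intergenic peaks in replicate 1 (horizontal axis, log scale) and replicate 2 (vertical axis, log scale), coloured by the replicate sets that hold the peak, with a dashed line of equal signal. Peaks in both sets (green) occupy the upper right up to signals of 358 and 349, and peaks in neither set (grey) cluster at low signal in both.

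Intergenic peaks were sparser than peaks in introns and at promoters, and their density fell with distance from transcript starts. The sequence that could hold a member, outside genes and more than 500 bp from a start, came to 36.7 Mb, and it held 15.6 members per Mb (exact Poisson 95% interval 14.3 to 16.9). Introns held 30.6 per Mb and promoters 81.0. Between 500 and 1000 bp from a start the density was 34.2 per Mb (27.7 to 41.8, 96 members). It was 29.1 between 1000 and 2000 bp, 18.3 between 2000 and 5000 bp, 15.4 between 5000 and 10000 bp and 10.6 between 10000 and 20000 bp.

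Beyond 20000 bp it was 2.25 per Mb (1.35 to 3.51), from 19 members. The median distance was 2845.5 bp (quartiles 1304 and 6160), against 6095 bp for all bases that could hold a member. The median signals of the 6 bins, from the nearest to the farthest, were 77.5, 79.6, 76.4, 64.5, 77.8 and 68.0. The farthest member lay 106043 bp from any start and had a signal of 45.9, rank 3620. Annotated transposons made up 10.8% of the eligible bases, and 16.4% beyond 20000 bp, but held 2 of the 572 summits. With transposons set aside the density still went from 35.2 per Mb in the nearest bin to 2.55 in the farthest. How well reads can be placed in these stretches was not tested.

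The nearest start belonged to a protein-coding gene for 374 members (65.4%), to a non-coding RNA gene for 181 and to another kind of gene for 17. As a separate count, 374 members (65.4%, 61.4 to 69.2) lay upstream of their nearest start rather than beyond the far end of its gene, while 57.9% of the eligible bases did. Between divergent genes, which point away from each other, lay 167 members (29.2%, 25.6 to 33.1) on 20.7% of the eligible bases. Tandem genes enclosed 260 (45.5%) on 52.4%, and convergent genes 145 (25.3%) on 26.9%.

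Near starts, from 500 to 2000 bp, the densities were 35.3 per Mb between divergent genes (27.9 to 44.1), 27.2 between tandem genes (22.3 to 32.8) and 36.5 between convergent genes (26.3 to 49.4), with overlapping intervals. Farther than 10000 bp from any start they were 15.2 (9.66 to 22.9), 4.13 (2.70 to 6.05) and 5.26 (3.30 to 7.97). Of the 23 divergent members this far from a start, 12 lay in the single interval between NijA and CG43245. Without it the divergent density was 7.56 (3.78 to 13.5), an interval that overlaps those of the other orientations, so the higher value far from starts rested on that interval. With all genes and all distances the divergent density was 22.9 per Mb (19.5 to 26.6), above the tandem (12.4 to 15.9) and convergent (12.9 to 18.0) intervals. With protein-coding genes only, divergent genes enclosed 29.4% of members on 24.5% of the bases, at 19.7 per Mb (16.8 to 22.9). That interval overlaps the tandem one (14.5 to 18.3) but not the convergent one (10.7 to 15.8). Tandem genes then enclosed 52.2% of members on 52.4% of the bases. The order of tandem and convergent densities was the other way, 16.3 and 13.0 per Mb against 14.1 and 15.3 with all genes.

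The X chromosome had few intergenic peaks. It held 49, or 7.14% of its 686 peaks (5.44 to 9.32), while arms 2 and 3 together held 523, or 16.9% of theirs (15.7 to 18.3). Per Mb of eligible sequence this was 9.11 (6.74 to 12.05) on X against 16.8 (15.4 to 18.3). Intron peaks did not show this order, with 35.5 per Mb of intron on X (31.9 to 39.3) and 29.8 on arms 2 and 3 (28.2 to 31.5). At promoters the densities were 84.7 and 80.9.

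Between 2000 and 10000 bp from a start, X had 7.96 members per Mb (4.79 to 12.4) and arms 2 and 3 had 18.8 (16.5 to 21.2). Closer than 2000 bp the values were 22.99 (14.9 to 33.9) and 32.8 (28.4 to 37.6), with overlapping intervals. Over 10000 bp they were 2.63 (0.853 to 6.13) and 5.81 (4.49 to 7.39), which also overlap. Members on X were not weaker, with a median signal of 78.9 against 70.5 to 76.4 on the other arms with members, and 34.7% of them were in both replicate sets. The sex of the pupae is not stated, and its part in this difference was not tested. Among the other arms the density ranged from 11.9 per Mb on 2R (9.54 to 14.6) to 20.2 on 3L. The interval of 2R overlaps that of X, although intergenic peaks made up 12.9% of the peaks on 2R (10.6 to 15.6). The small arm 4 had no member on 0.27 Mb, a count of 0 that allows up to 13.7 per Mb.

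**Figure D3:**
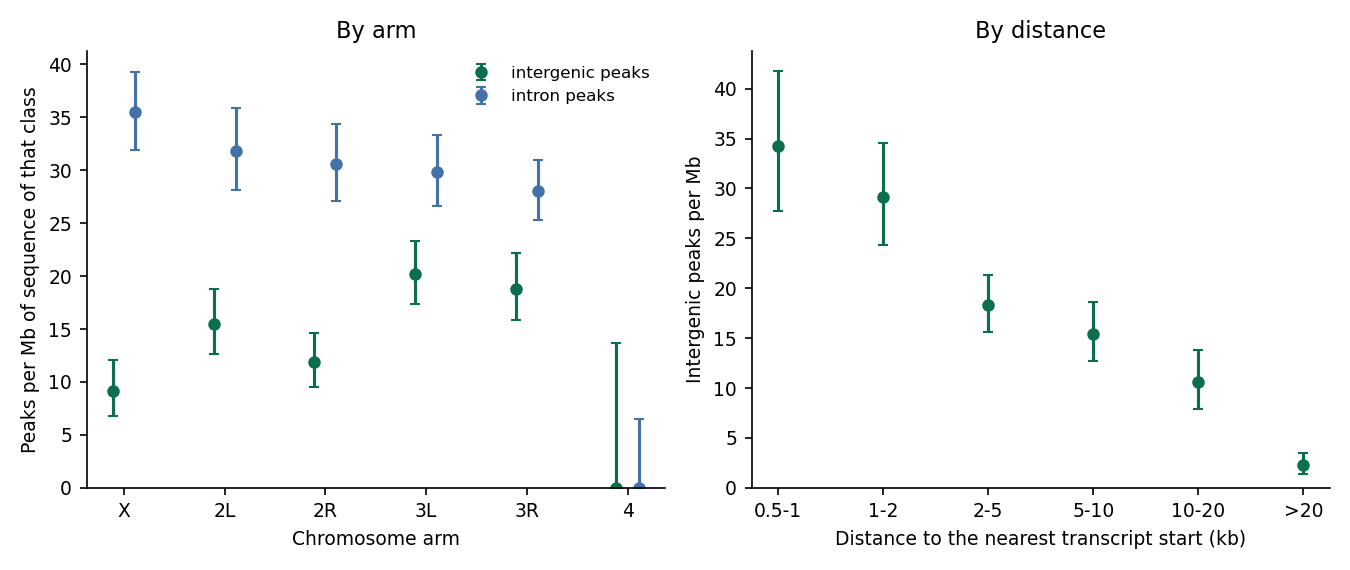
Left, intergenic and intron peaks per Mb of sequence of that class (vertical axis) on each chromosome arm; right, intergenic peaks per Mb by distance to the nearest transcript start in kb. Points are densities and bars are exact Poisson 95% intervals. X has the lowest intergenic density of the 5 large arms, 9.11 per Mb, with an interval that overlaps that of 2R. Density falls from 34.2 to 2.25 per Mb with distance.

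Members were unevenly spread over the intervals between neighbouring genes. Of 6480 intervals with eligible sequence, 389 held a member: 291 held 1, 58 held 2, and 40 held 3 or more, with 165 members in all. Another peak of the set lay within 5 kb of 309 members (54.0%), against 59.7% of intron and 43.8% of promoter peaks.

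The most members in an interval, 12, lay in the 75.05 kb between NijA, which encodes the cell surface protein Ninjurin A, and CG43245 on 3L. Their signals ran from 65.5 to 184, with a median of 87.2, and from 34.4 to 92.6 in replicate 1 and 28.8 to 94.4 in replicate 2. Both replicate sets held 8 of the 12. The strongest is the one printed above, and it overlaps its neighbour, which is also among those 8. The strong peak between CG43245 and CG12523 described above lies just beyond CG43245.

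Upstream of Eip93F, the ecdysone-induced transcription factor gene known for directing adult differentiation in pupae, lay 8 members in the 33.6 kb to Qsox2. All 8 stood 783 to 13735 bp from Eip93F, on its side of the interval. Their signals ran from 8.72 to 105, with 5.29 to 62.5 in replicate 1 and 15.6 to 50.1 in replicate 2, and both replicate sets held 3 of them. The strongest, at 3R:21941384-21941679, had 105 (49.0 and 50.1). Of the 8, 4 overlapped another member in pairs, so they need not be 8 sites. The 3 in both sets include the member with 8.72, which overlaps the strongest and shares its replicate 2 value of 50.1.

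The 33.0 kb between tRNA:Ile-TAT-1-2 and CG13898 held 7 members with signals from 74.9 to 243, and both replicate sets held 4. The 18.7 kb between CG18404 and lncRNA:CR46113 held 7, from 54.5 to 244, and both sets held 4. Both intervals lie in longer stretches without coding genes, of which hng3 to CG13898 held 12 members and CG18404 to heca held 8. Between CG8635 and ptc, the Hedgehog receptor gene, 17.7 kb on 2R held 7 members with signals from 14.2 to 178, of which 1 was in both sets and 5 were in neither. Its strongest had 178 (89.3 and 87.6) and lay 5268 bp from ptc.

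**Figure D4:**
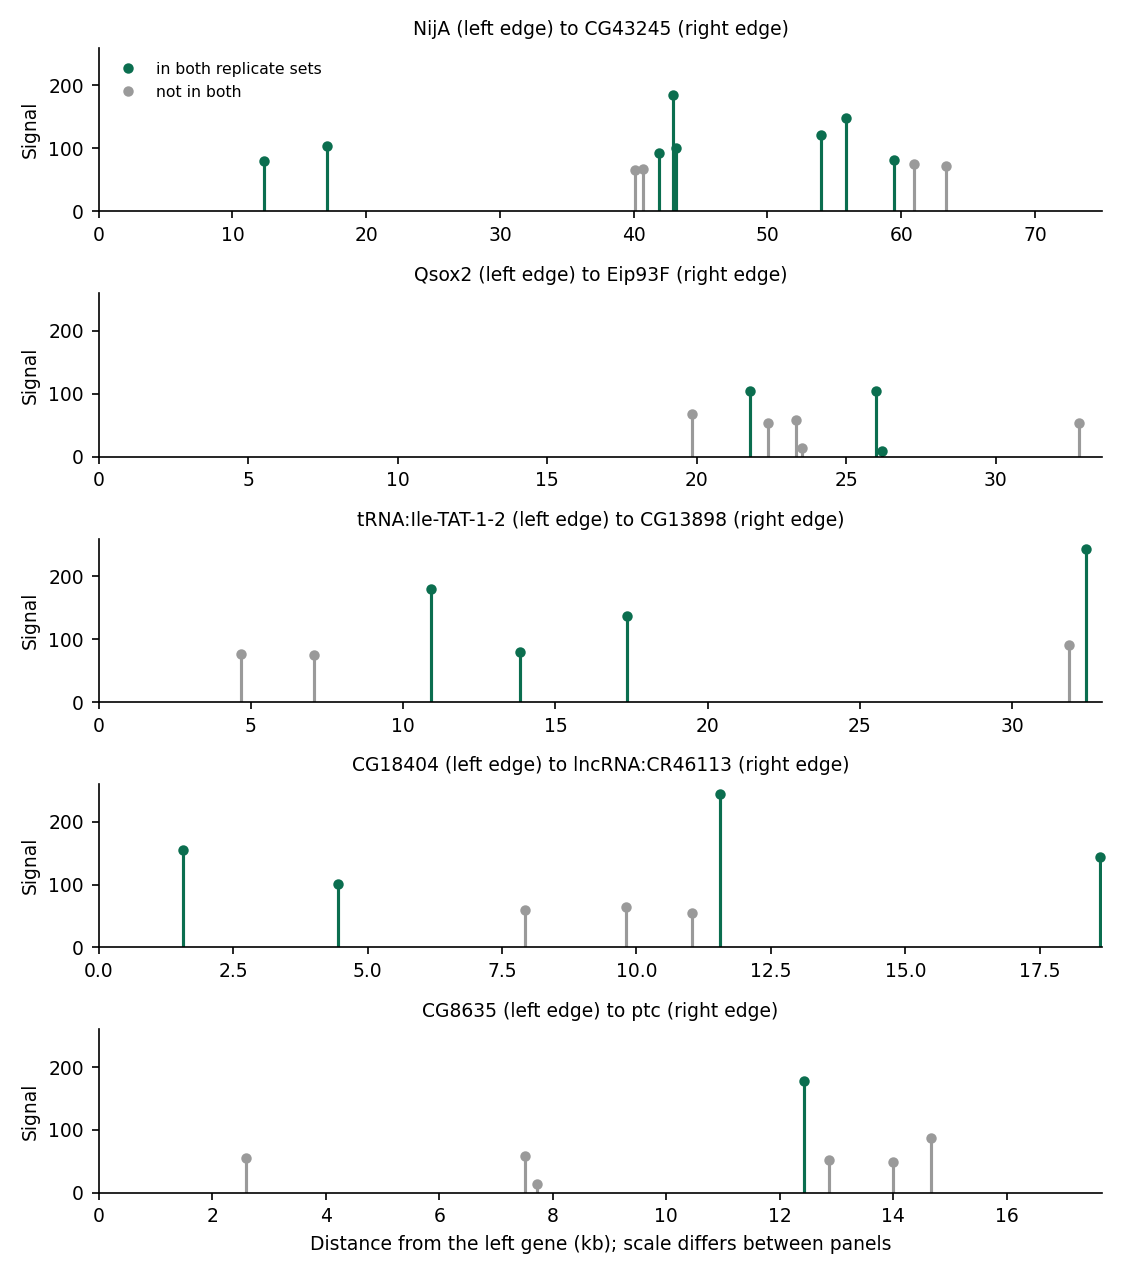
Signal of each intergenic peak (vertical axis) against its distance from the left-hand gene in kb (horizontal axis) in the 5 intervals with the most members, green where both replicates' sets hold the peak and grey otherwise. The 8 peaks of the second panel all lie toward Eip93F, and the highest signal shown is 244 in the fourth panel.

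Limb-patterning and signalling genes often had an intergenic peak beside them, where a gene is beside a member when it is the nearest protein-coding gene on the left or right of the summit. Of 13945 protein-coding genes 641 were, a share of 4.6%. The share was 5 of 12 for distal leg genes, 4 of 10 for proximal leg and antenna genes, 4 of 7 for joint and odd-skipped genes and 11 of 20 for signalling ligands and inhibitors. It was 1 of 85 for ribosomal protein genes and 4 of 121 (3.31%) for cuticle protein genes. Genes with much sequence between them and their neighbours have more room for a member, so the density per Mb of eligible flanking sequence is given next.

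The median eligible flanking sequence was 0.07 kb over all coding genes and 27.1 kb for distal leg genes. Per Mb of such sequence all coding genes had 16.4 members. Distal leg genes had 23.8 (10.3 to 46.9), and proximal leg genes 15.2 (4.93 to 35.4), both with intervals that include that value. Joint and odd-skipped genes had 85.0 (38.9 to 161), from 9 members on 106 kb. Of those 9 members, 5 lay beside drm, 2 beside Ser and the rest beside odd and sob, which are neighbours. Ligands and inhibitors had 43.6 (22.5 to 76.1), from 12 members that include the same 2 beside Ser. Ecdysone response genes had 108 (52.0 to 199), of which Eip93F gave 8 of 10 members. That interval counts each member as separate, although 4 of the 8 at Eip93F overlapped in pairs, so it is too narrow. Ribosomal protein genes had 1.77 (0.045 to 9.86), and cuticle protein genes 13.6 (3.70 to 34.7), which includes the value of all coding genes. So after length was allowed for, distal and proximal leg genes stood no farther from the background than counting error.

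At the tagged gene, rn, the only intergenic peak beside it lay at 3R:7310669-7310964, 1188 bp upstream of its start, and its bases are printed above. Its signal was 106 (57.4 and 53.4), and replicate 2's own set held it while that of replicate 1 did not. Beside bab2, a transcription factor gene of the same tarsal network, the stronger of 2 members lay at 3L:1178119-1178414, 991 bp upstream, with 78.5 (47.7 and 32.4), and replicate 1's set held it while that of replicate 2 did not. The other, with a signal of 3.63, overlaps it. No member was beside bab1 or the related zinc finger gene sqz.

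Other distal leg genes with a member were C15, a homeobox gene of the leg tip, with 237 (114 and 120) at 3R:21520268-21520407, Lim1 with 64.4 (44.2 and 17.0) and ap with 41.7 (15.9 and 25.4). The C15 peak lay closer to the start of sp3, at 569 bp. The peak given for Lim1 lay 31623 bp from the start of Lim1 and 896 bp from that of CG12075. Only replicate 1's set held this Lim1 peak. The peak given for ap lay 17713 bp from the start of ap and 9279 bp from that of another gene. Neither replicate set held this ap peak. Of the proximal genes, hth, a homeobox gene of the proximal leg, had a peak of 106 (66.3 and 40.2), 25545 bp from its start, salm and salr shared one of 67.9 (54.9 and 20.3), and tsh had one of 61.0 (24.6 and 41.8). Only replicate 1's set held the salm and salr peak, and only replicate 2's set held the tsh peak. The odd-skipped family gene drm had 5 members, the strongest with 116 (59.4 and 59.2), and odd and sob shared one of 82.3 (42.1 and 38.2).

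Among ligands, Ser, a Notch ligand gene, had one of 143 (65.8 and 76.5), dpp, a BMP ligand gene, one of 119 (59.7 and 61.3), and upd1 and upd3, JAK-STAT ligand genes, shared one of 118 (53.9 and 64.7). All 3 were in both replicate sets. The Ser peak lay 26431 bp from the start of Ser and 1848 bp from that of spn-D. The dpp peak lay 1759 bp from the start of dpp and 1268 bp from that of lncRNA:CR44912. The shared peak of upd1 and upd3 lay 14040 and 16986 bp from their starts and 1839 bp from that of lncRNA:CR15061. In other lists, the zinc finger gene klu had a peak of 224 (144 and 80.7) 1442 bp from its start, the homeobox gene ct one of 178 (135 and 43.7), and E(spl)malpha-BFM and E(spl)mbeta-HLH of the Notch-responsive complex shared one of 176 (99.1 and 80.5). The T-box genes Doc1 and H15 had peaks of 114.9 and 99.6, the latter shared with mid. For Hox genes the values were lower, with 72.0 at abd-A and 49.2 between Dfd and Scr, the latter in neither replicate set.

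The other lists gave 3 of 8 Hox genes, 3 of 15 wing genes, 3 of 16 ecdysone genes, 1 of 12 proneural genes, 2 of 12 genes of the Enhancer of split complex, 5 of 25 homeobox and T-box genes, 8 of 23 zinc finger and HMG genes, 4 of 20 axon guidance genes and 3 of 15 muscle genes. Per Mb of eligible flanking sequence, wing genes had 10.7 members, axon guidance genes 11.6, zinc finger and HMG genes 12.8 and Hox genes 16.7, so these shares above 4.6% went with densities close to or below the 16.4 of all coding genes. Proneural genes had 22.5 (2.72 to 81.2), homeobox and T-box genes 25.9 (12.4 to 47.6) and muscle genes 26.2 (5.41 to 76.7), with intervals that include it. So did that of the Enhancer of split complex, 102 (12.4 to 369), from 2 members.

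The strongest peaks beside further genes of these lists had signals of 58.0 for mirr and caup, 53.6 for knrl, 60.2 for Eip78C, 97.8 for ImpL2, 71.8 for Dr, 96.0 for wor, 88.8 for srp, 83.0 for robo2, 70.6 for Con, 64.0 for Fas3, 59.9 for caps, 129 for sls, 100.8 for how and 98.7 for twi. Several of these lay closer to the start of another gene. The Con peak was 999 bp from CG4597 and 49467 bp from Con, that of ImpL2 was 525 bp from Sqor, and that of twi was 584 bp from Fatp2. Neither replicate set held the peaks of mirr and caup, knrl and caps. The ribosomal protein gene RpL17 had a peak of 58.5, and the cuticle protein genes Cpr76Ba, Cpr62Bc, Cpr51A and Cpr35B had peaks of 91.6, 91.1, 70.0 and 60.3. Those of RpL17 and Cpr51A were also in neither replicate set. The lists were chosen with earlier results of these data known.

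The centres of intergenic peaks were poor in G and C. The 51 bp around the summit held 34.9% ± 11.8 (SD over 572 peaks), against 41.8% ± 7.60 in flanks 500 bp to either side and 40.8% ± 9.74 over 358616 windows, each of 50 bp on either side of its centre, that tile the eligible sequence. The centre was below its own flanks in 412 of 572 (72.0%). In steps of 21 bp the mean was 34.1% at the summit and rose to 45.8% 200 bp to the left and 47.1% 200 bp to the right, above the mean of the tiling windows. Intron peaks had 32.6% at the summit and 45.3% and 45.4% at the same distances, and promoter peaks 34.0%, 42.9% and 42.5%.

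The stronger a peak, the lower this value tended to be. The 143 strongest members had 31.8% ± 9.27 (SD) and the 143 weakest 40.6% ± 12.7. The Spearman correlation of signal with the G and C content of the 51 bp was -0.254 over the 572, -0.173 with the replicate 1 signal and -0.203 with that of replicate 2. It was -0.200 over intron peaks and -0.309 over promoter peaks. The part of base composition in the recovery of fragments was not tested.

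**Figure D5:**
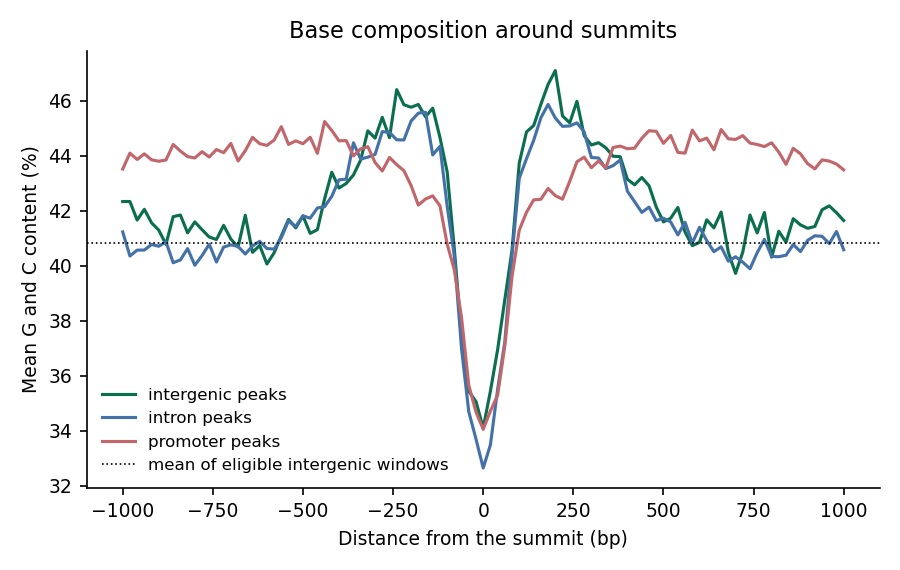
Mean G and C content (vertical axis, %) in 21 bp windows by distance from the summit in bp (horizontal axis), for intergenic, intron and promoter peaks, with the mean of windows tiling eligible intergenic sequence dotted at 40.8%. All 3 classes dip at the summit, intergenic peaks to 34.1%, and all 3 lie above the dotted line at 200 bp on either side, with intergenic peaks at 45.8% and 47.1%.

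Short motifs were searched on both strands within 50 bp of each summit, as a description of letters and not of bound sites. A run of 7 A, AAAAAAA, was found in 84 members (14.7%, 12.02 to 17.8), in 10.2% of flanks, in 18.8% of intron peaks and in 17.8% of promoter peaks. Reweighted to the G and C content of the members, 13.0% of the tiling windows held it, within the members' interval. The core TGCATA, of the insulator protein Su(Hw), was in 59 members (10.3%, 8.08 to 13.1), in 6.29% of flanks and in 7.35% of windows of like composition. The GAGA factor core GAGAG was in 72 (12.6%, 10.1 to 15.6) and in 12.2% of flanks, but in 8.75% of windows of like composition. Of the 143 strongest members 11.9% held it (7.56 to 18.2), and of the 143 weakest 17.5% (12.1 to 24.5). The longer GAGAGAGAG was in 2 members (0.35%), in 0.87% of flanks and in 0.16% of windows of like composition. Intron and promoter peaks held TGCATA at 8.48% and 7.64%, and GAGAG at 11.2% and 10.9%, all with intervals that overlap those of the members.

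The homeodomain core TAATTA was in 7.87% of members (5.93 to 10.4) and of flanks alike, and in 10.2% of windows of like composition. The element TATCGATA, which the factor DREF binds at promoters, was in 2 intergenic peaks (0.35%) and in 1.72% of promoter peaks. TATAAA was in 17.5% of members and 12.2% of flanks, and 18.9% of windows of like composition held it. Of the others, TGANTCA was in 3.15% and 2.19% of flanks, GCCAT in 15.035% and 17.9%, TGATAA in 7.69% and 6.21%, CACACA in 7.69% and 9.18%, CATTCC in 3.85% and 4.37%, CAGCTG in 2.97% and 3.93%, TGACCT in 2.10% and 2.19%, TTTTATG in 5.07% and 4.81%, ACAAAG in 5.24% and 5.33%, TGTCAT in 4.37% and 4.63%, and TGTTTAC in 1.40% and 1.75%. CACGTG was in 0.87% of members and 0.26% of flanks, and CAGGTAG in 0.52% of both. Windows of like composition held ACAAAG at 7.52%, just above the members' interval (3.70 to 7.39), and TGANTCA at 1.89%, just below it (2.00 to 4.92). Their shares lay within the members' interval for each other motif named since TAATTA. GGTCACACT was in 2 members (0.35%, 0.096 to 1.27), in 0 of 1144 flanks and in 0.046% of windows of like composition. AACCGGTT was in 1 member (0.17%) and in 0 of 1144 flanks. No motif searched was present in more than 17.5% of members.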

How the data were processed

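ChIP-seq peaks of whole pupae with an rn-eGFP fusion were analysed in 2 biological replicates of 1 group. The deposited narrowPeak lists are on dm6, per the labels: a ranked and a thresholded list per replicate and, over both replicates, ranked, thresholded and conservative lists. The score in the deposited files is the irreproducible discovery rate (IDR) rescaled by the authors, with 830 at an IDR of 0.01 and at most 1000. Ranked lists also give −log10 of the IDR, as deposited. The signal is the peak height given by the authors' caller. Which aligner and caller were used is not given in the sources used here.

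Members, gene lists and motifs were chosen with earlier results of these data known. Summits were placed on Release 6 (RefSeq) with the gene models of Ensembl release 115 (BDGP 6.54), without transposons and pseudogenes. Classes were promoter (within 500 bp of a start), exon, intron and intergenic. Coordinates are 1-based. An overlap of 1 bp or more counted as recurrence. Shares have 95% Wilson intervals and densities exact Poisson ones, both covering counting error over peaks only, and no test over peaks was made, since peaks are not replicates. Replicate numbers come from the labels. The text names the 10 strongest members, the 5 intervals between neighbouring genes with the most members, up to 4 genes per list, and rn, sqz, bab1 and bab2; other genes, the printed sequence at rn and the comparisons of X, of flanking length and of base composition were added after values were seen. 3 peaks off the arms were left out. The alternatives were other lists, IDR limits, distances, gene models, overlaps and windows. The scripts were checked on simulated data. The tools were scipy 1.17.1, pandas 2.3.3, numpy 2.4.6 and matplotlib 3.10.9 under Python 3.11.15.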

Additional observations from a re-analysis of the deposited data

Results flagged for a closer look

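The ranked list over both replicates held 82 peaks on the arms at or above the threshold score of 830 that are not in the thresholded set, and 11 of them met the rule for intergenic peaks away from promoters. They are looked at again because they form a signal outside the set described. Their median signal was 66.2. The highest had 296.2, at 2L:2199277-2199432, 1438 bp from the start of COX7AL2 and near the second strongest member. The next had 252, at 3R:16224438-16224561, 884 bp from the start of lncRNA:CR45643 and near the member between mtSSB and tara. Of the 11, 3 were above the upper quartile of the members' signals. What kept them from the deposited set was not tested.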

How the results depend on the processing

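Over 169 alternatives, 68 values moved by more than their counting error (or, for counts, by more than 1.5 times). The count of 572 was 293 at an IDR of 0.001 or less, 344 with a limit of 2000 bp and 289 to 328 in single replicates. The share of 15.2% was 13.9% at that IDR, 18.1%, 12.6% and 9.12% with limits of 250, 1000 and 2000 bp, 18.6% with protein-coding genes only and 13.7% to 13.8% in single replicates. The median signal was 105 at that IDR and 50.9 to 54.4 in single replicates, whose signals are on their own scale. The share found in replicate sets was 48.4% to 55.1% with 1 replicate in place of both. With protein-coding genes only, divergent genes held 29.4% on 24.5% of the bases, tandem genes 52.2% on 52.4% and convergent genes 18.4% on 23.1%. The order of the tandem and convergent densities turned, the divergent interval overlapped the tandem one, and the median distance was 4445.5 bp. Genes beside a member fell to 399 to 452 in single replicates. The share on X was 11.1% and that on arms 2 and 3 was 20.2% with protein-coding genes only, and the latter was 15.3% to 15.5% in single replicates, so X stayed below; these alternatives for X were chosen after seeing the data. Without the NijA interval, a choice made after seeing the data, the divergent density over 10000 bp from a start was 7.56 per Mb in place of 15.2. Of 110 motif values, 67 moved by less than their counting error, and most others followed the window width. No paired analysis was possible because there is 1 group. Unknown depth limits all signals, and an absent replicate call cannot be read as absent binding.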
